A study of Oryza sativa with 18 samples.

Results

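The SnRK2 kinases of rice, SAPK1 to SAPK10, were followed in the top leaves of 3 rice genotypes under well-watered conditions and after 1 and 3 days of drought stress. The 10 genes were taken by their MSU locus identifiers, and all 10 were found among the 39049 genes of the expression table. They are SAPK1 (LOC_Os03g27280), SAPK2 (LOC_Os07g42940), SAPK3 (LOC_Os10g41490), SAPK4 (LOC_Os01g64970), SAPK5 (LOC_Os04g59450), SAPK6 (LOC_Os02g34600), SAPK7 (LOC_Os04g35240), SAPK8 (LOC_Os03g55600), SAPK9 (LOC_Os12g39630) and SAPK10 (LOC_Os03g41460). Each name was also found for 1 gene on the same chromosome in the RefSeq gene table of the ASM3414082v1 assembly, another build than the one behind the expression values, so positions are given here by locus number only. Every member passed the filter on low values, which asked for 1 FPKM or more in any of the columns, and each was above 1 FPKM in all 9 columns.

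H471 is a single drought-tolerant introgression line, which carries segments of its tolerant donor parent P28 in the background of its drought-sensitive recurrent parent HHZ. P28 and HHZ are both indica varieties. All plants were grown in greenhouse pots to the tillering stage, and 3 groups of leaves were taken from each genotype: drought-stressed for 1 day at a soil water content of 15%, drought-stressed for 3 days at 10%, and a well-watered control. The paper counted these days from a set level of available soil water, not from the time water was first withheld. Each of the 9 combinations of genotype and condition had 2 libraries, 18 in all, and the table holds 1 pooled value for the 2 libraries of each combination.

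SnRK2 kinases are plant-specific serine/threonine kinases that are switched on by osmotic stress. In the core abscisic acid (ABA) pathway, clade A protein phosphatases 2C (PP2C) hold the kinases inactive, and ABA bound to PYR/PYL receptors takes the phosphatases off them. The released kinases phosphorylate bZIP transcription factors at ABA-responsive genes and, in guard cells, the anion channel SLAC1. The rice family falls into subclass II (SAPK1, SAPK2, SAPK3), subclass I (SAPK4, SAPK5, SAPK6, SAPK7) and subclass III (SAPK8, SAPK9, SAPK10). In rice the members of subclass III are activated by ABA as well as by osmotic stress. Kinase activity is set by phosphorylation and was not measured here: every value below is a transcript level.

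Levels are FPKM, fragments normalized for transcript length and library size, so levels of different genes can be set side by side. The table holds no counts, so the number of reads behind a single value is not given here, and library totals were not used. The members are related in sequence, and how many reads matched more than 1 of them is not known. The paper states that its further analysis used reads with a unique match. For the conditions and genotypes, limma was fitted to log2(FPKM + 1) over all 20568 genes that passed the filter, with a term for genotype and a term for condition. Because a column is already a pool, the 3 genotypes stood in for replicates of a condition and the 3 conditions for replicates of a genotype. The p-values therefore measure how alike the genotypes or the conditions were, not the spread between plants. A gene was called at a Benjamini-Hochberg adjusted p under 0.05 over all 20568 genes, and every adjusted p below is of this fit unless an alternative fit is named beside it. In whole leaves, fewer cells of a type and less RNA per cell cannot be told apart.

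The leaf identity of the samples was checked on 6 leaf markers (3 rubisco small subunit genes, rubisco activase and 2 chlorophyll a/b-binding protein genes). Their summed level was between 8333 and 10268 FPKM in the control columns, between 24217 and 33248 FPKM after 1 day and between 3085 and 4439 FPKM after 3 days. The 6 markers did not move together. After 1 day rubisco activase and both chlorophyll a/b-binding protein genes rose, and no rubisco small subunit gene was called (adjusted p between 0.12 and 0.43). After 3 days 4 markers fell: the small subunit genes (fitted log2 differences between -4.42 and -3.42) and LOC_Os01g41710, a chlorophyll a/b-binding protein gene. Rubisco activase and the other chlorophyll a/b-binding protein gene rose. The root transporter gene LSI2 was at or near 0 in all columns, and LSI1 moved with the longer drought: it was between 7.47 and 10.4 FPKM in control leaves, between 8.48 and 12.9 FPKM after 1 day and between 12.4 and 18.8 FPKM after 3 days (fitted log2 difference after 3 days 0.83, adjusted p = 0.011). The glutelin gene LOC_Os01g55690, a seed marker, was at 31.6 FPKM in HHZ after 1 day and between 0.404 and 1.0 FPKM in the other 8 columns. The part of these markers in the results was not tested.

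In control leaves the family was led by SAPK2 and SAPK9, whose levels overlapped. SAPK2 lay between 159 and 186 FPKM over the 3 genotypes and SAPK9 between 151 and 167 FPKM. SAPK5 (92.7 to 104 FPKM), SAPK6 (73.1 to 83.4 FPKM), SAPK8 (34.8 to 38.0 FPKM) and SAPK7 (22.7 to 24.8 FPKM) followed without overlap between neighbours. SAPK3 (14.2 to 21.0 FPKM) and SAPK1 (12.5 to 14.4 FPKM) overlapped each other, SAPK10 lay below both (10.0 to 12.1 FPKM), and SAPK4 was the lowest of the 10 (6.45 to 8.0 FPKM). The spread in each of these ranges is that between genotypes.

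The order was different after 1 day of drought. SAPK5 was the highest member in all 3 genotypes (123 to 147 FPKM). SAPK6 (58.9 to 59.7 FPKM), SAPK4 (52.3 to 62.6 FPKM) and SAPK3 (47.5 to 63.9 FPKM) came next and overlapped one another. SAPK8 overlapped SAPK1, and SAPK1 overlapped SAPK2, between 32.2 and 46.9 FPKM for the 3 genes together. SAPK9, a leader of the control order, was now the third lowest (18.3 to 23.9 FPKM), above SAPK10 (8.72 to 11.3 FPKM) and SAPK7 (1.33 to 3.17 FPKM). After 3 days SAPK5 was again the highest member (175 to 212 FPKM) and SAPK10 the lowest (8.23 to 12.4 FPKM). The other 8 genes lay between 35.5 and 73.6 FPKM, and each overlapped its neighbours in the order.

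**Figure D1:**
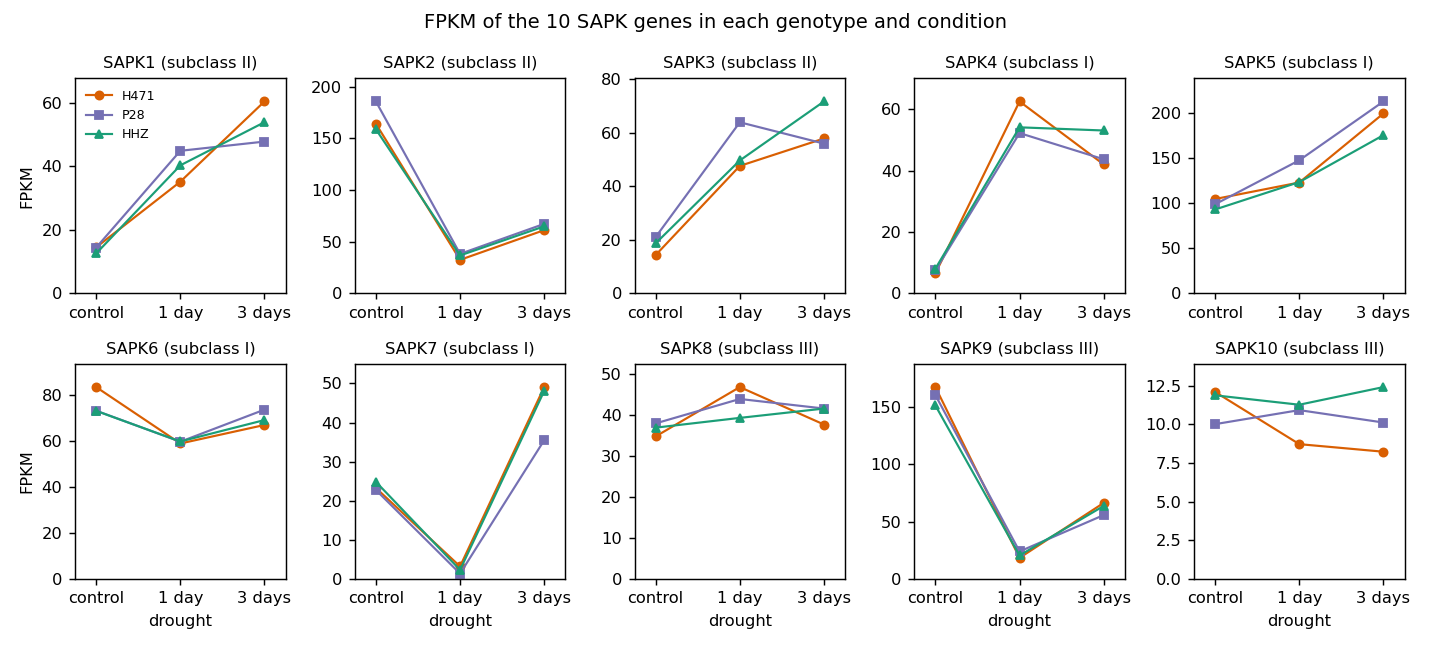
FPKM of each SAPK gene (vertical axis, from 0, its own scale in each panel) in control leaves and after 1 and 3 days of drought (horizontal axis), with 1 point for each pooled column of H471 (circles), P28 (squares) and HHZ (triangles). SAPK2, SAPK7 and SAPK9 were low after 1 day in all 3 genotypes, SAPK1, SAPK3 and SAPK4 were high after 1 and 3 days, and SAPK10 stayed between 8.23 and 12.4 FPKM throughout.

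Within subclass II, SAPK1 and SAPK3 rose under drought and SAPK2 fell. SAPK1, which with SAPK2 is known in rice for a part in germination and seedling growth under salt, was at 14.4, 14.4 and 12.5 FPKM in control leaves of H471, P28 and HHZ, at 35.1, 44.9 and 40.3 FPKM after 1 day and at 60.5, 47.8 and 53.9 FPKM after 3 days. The drought columns of SAPK1 lay above all its control columns on both days, and its fitted log2 difference from control was 1.47 ± 0.13 (SE, adjusted p = 8.4e-05) after 1 day and 1.89 ± 0.13 (adjusted p = 3.7e-05) after 3 days. SAPK1 was also higher after 3 days than after 1 day, by a log2 difference of 0.42 ± 0.13 (adjusted p = 0.03). This last call was lost without the H471 columns (0.25, adjusted p = 0.19), without the HHZ columns (0.43, adjusted p = 0.15) and with only the 6 columns of the 2 drought days (0.42, adjusted p = 0.086).

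SAPK3 was at 14.2, 21.0 and 18.6 FPKM in control leaves of H471, P28 and HHZ, at 47.5, 63.9 and 49.6 FPKM after 1 day and at 57.8, 55.9 and 71.6 FPKM after 3 days. Its fitted log2 difference was 1.53 ± 0.14 after 1 day (adjusted p = 0.00011) and 1.74 ± 0.14 after 3 days (adjusted p = 7.7e-05). Between the 2 drought days SAPK3 differed by 0.20 on the log2 scale (95% interval -0.13 to 0.54), with a lower value after 3 days in P28 and higher values in H471 and HHZ. The difference was called only without the P28 columns (0.40, adjusted p = 0.0499).

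SAPK2, known in rice as a positive regulator of ABA responses, was at 164, 186 and 159 FPKM in control leaves of H471, P28 and HHZ, at 32.2, 38.0 and 36.5 FPKM after 1 day and at 61.0, 67.1 and 64.7 FPKM after 3 days. No drought column reached a control column. The 1-day level was 0.197, 0.205 and 0.230 times that of the control in H471, P28 and HHZ, and the 3-day level was 0.372, 0.361 and 0.408 times that of the control. The fitted log2 differences were -2.22 ± 0.07 after 1 day (adjusted p = 1.2e-06) and -1.38 ± 0.07 after 3 days (adjusted p = 1.2e-05). SAPK2 was higher after 3 days than after 1 day, by 0.84 ± 0.07 (adjusted p = 9.3e-05), and stayed below the control on both days.

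Subclass I held the largest rise of the family and its lowest drought level. SAPK4, a regulator of salt tolerance in rice, was at 6.45, 7.42 and 8.0 FPKM in control leaves of H471, P28 and HHZ, at 62.6, 52.3 and 54.2 FPKM after 1 day and at 42.1, 43.7 and 53.1 FPKM after 3 days. These 1-day levels were 9.71, 7.05 and 6.77 times those of the control. The fitted log2 difference of SAPK4 was 2.79 ± 0.12 after 1 day (adjusted p = 3.2e-06), and 2.43% of the 20568 genes rose at least as far. It was 2.51 ± 0.12 after 3 days (adjusted p = 8.9e-06). The lowest member of the control order stood among the 4 highest members after 1 day. Its 3-day levels were below its 1-day levels in all 3 genotypes, without a call (-0.28, 95% interval -0.55 to -0.01, adjusted p = 0.083).

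SAPK7 went in opposite directions on the 2 days. It was at 23.2, 22.7 and 24.8 FPKM in control leaves of H471, P28 and HHZ, at 3.17, 1.33 and 2.27 FPKM after 1 day and at 49.1, 35.5 and 48.1 FPKM after 3 days, and no 2 of the 3 conditions overlapped. The fitted log2 difference was -2.96 ± 0.14 after 1 day (adjusted p = 6.5e-06), and 1.56% of all genes fell at least as far. After 3 days it was 0.86 ± 0.14 (adjusted p = 0.0021). The 3-day level was 15.5, 26.7 and 21.2 times the 1-day level in H471, P28 and HHZ, a fitted log2 difference of 3.82 ± 0.14 (adjusted p = 3.1e-06), and 0.321% of all genes rose at least as far between the 2 drought days. At levels this low the added 1 FPKM shrinks the log2 difference, so the ratios are larger than the fitted values.

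SAPK5, the highest member under drought, was at 104, 98.5 and 92.7 FPKM in control leaves of H471, P28 and HHZ, at 123, 147 and 123 FPKM after 1 day and at 199, 212 and 175 FPKM after 3 days. Each day lay above the one before it in every genotype. The fitted log2 difference of SAPK5 was 0.40 ± 0.08 after 1 day (adjusted p = 0.005), 0.98 ± 0.08 after 3 days (adjusted p = 9.4e-05) and 0.58 ± 0.08 between the drought days (adjusted p = 0.0012). Without the HHZ columns the 1-day rise kept its size and lost its call (0.40, adjusted p = 0.052).

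SAPK6 moved least among the called members. It was at 83.4, 73.2 and 73.1 FPKM in control leaves of H471, P28 and HHZ, at 58.9, 59.6 and 59.7 FPKM after 1 day and at 66.9, 73.6 and 69.1 FPKM after 3 days. The 1-day columns lay below all control columns, with a fitted log2 difference of -0.36 ± 0.08 (adjusted p = 0.0069). The 3-day columns overlapped the control columns (-0.13, 95% interval -0.32 to 0.06, adjusted p = 0.20). A call between the 2 drought days (0.23 ± 0.08, adjusted p = 0.047) was lost under 6 of its 8 alternative fits, with adjusted p between 0.051 and 0.17 in those 6.

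In subclass III only SAPK9 was called on either drought day. SAPK9, known in rice for a positive part in drought tolerance, was at 167, 160 and 151 FPKM in control leaves of H471, P28 and HHZ, at 18.3, 23.9 and 20.4 FPKM after 1 day and at 66.2, 55.6 and 63.6 FPKM after 3 days. The conditions did not overlap. Its 1-day level was 0.109, 0.149 and 0.135 times that of the control in the 3 genotypes, a fitted log2 difference of -2.89 ± 0.12 (adjusted p = 3.1e-06), and 1.69% of all genes fell at least as far. The 3-day difference from control was -1.36 ± 0.12 (adjusted p = 0.0001). Between the 2 drought days SAPK9 rose by 1.53 ± 0.12 on the log2 scale (adjusted p = 6.6e-05).

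SAPK8 was at 34.8, 38.0 and 37.0 FPKM in control leaves of H471, P28 and HHZ, at 46.9, 44.0 and 39.4 FPKM after 1 day and at 37.7, 41.6 and 41.6 FPKM after 3 days. All 3 of its 1-day columns lay above its control columns. Its fitted log2 difference was 0.24 after 1 day (95% interval 0.03 to 0.44, adjusted p = 0.052) and 0.14 after 3 days (95% interval -0.07 to 0.34, adjusted p = 0.22). With median-ratio scaling of the columns the 1-day difference was called (0.27, adjusted p = 0.031).

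SAPK10, which phosphorylates the bZIP factor TRAB1 in rice, was at 12.1, 10.0 and 11.9 FPKM in control leaves of H471, P28 and HHZ, at 8.72, 10.9 and 11.3 FPKM after 1 day and at 8.23, 10.1 and 12.4 FPKM after 3 days. The 3 conditions overlapped. The fitted log2 difference was -0.13 after 1 day (95% interval -0.44 to 0.19) and -0.14 after 3 days (95% interval -0.46 to 0.17), with adjusted p of 0.43 and 0.38.

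**Figure D2:**
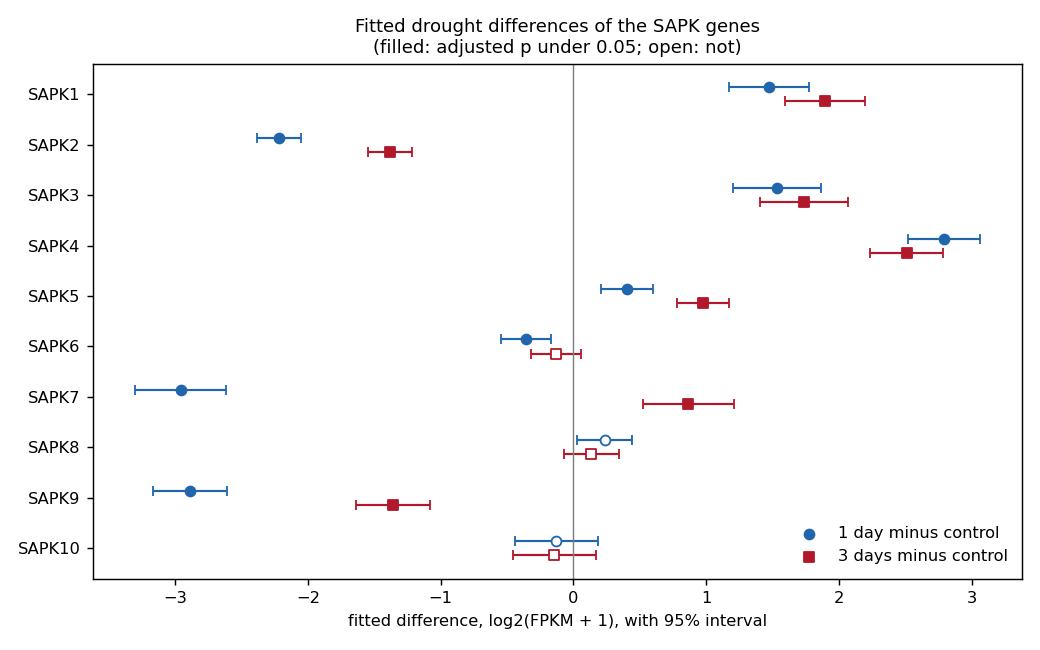
Fitted difference from control in log2(FPKM + 1) (horizontal axis) of each SAPK gene (rows) after 1 day (circles) and 3 days (squares), with 95% intervals from limma; filled symbols passed the adjusted p threshold and open ones did not. Fitted values ran between -2.96 (SAPK7) and 2.79 (SAPK4) after 1 day and between -1.38 (SAPK2) and 2.51 (SAPK4) after 3 days.

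Counted over the family, 4 of the 10 members rose after 1 day (SAPK1, SAPK3, SAPK4, SAPK5), where 27.4% of all genes tested rose, and 4 fell (SAPK2, SAPK6, SAPK7, SAPK9), where 30.8% of all genes fell. The directions cancelled in the median, which was 0.05 over the members and -0.02 over all genes. The median absolute log2 difference was 1.5 over the members and 0.48 over all genes after 1 day, 1.17 and 0.45 after 3 days, and 0.35 and 0.39 between the drought days. All genes here include those that reached 1 FPKM in only some columns, and the added 1 FPKM shrinks differences at low levels. The members were above 1 FPKM in every column, and the part of expression level in this contrast was not tested. After 3 days 5 members rose (SAPK1, SAPK3, SAPK4, SAPK5, SAPK7), beside 27% of all genes, and 2 fell (SAPK2, SAPK9), beside 30.1% of all genes. The median was then 0.50 over the members and -0.03 over all genes. Both comparisons share the control columns. From 1 day to 3 days 6 members rose (SAPK1, SAPK2, SAPK5, SAPK6, SAPK7, SAPK9), against 25.3% of all genes, and none fell by limma, against 24.4% of all genes. SAPK4 alone among the members that were lower after 3 days had an unadjusted p under 0.05. The 1-day columns of 9 members did not overlap the control columns, SAPK10 being the exception, and the same was true of 62.5% of all genes. After 3 days this held for 7 members, without SAPK6, SAPK8 and SAPK10, and for 60.7% of all genes.

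By a size rule of at least 2-fold in FPKM + 1, which needs no test, the same number of members stood out in each genotype after 1 day. In H471, P28 and HHZ alike, SAPK1, SAPK3 and SAPK4 were higher and SAPK2, SAPK7 and SAPK9 lower by this rule, 6 of 10 members. The share of all genes past it was 26.6% for H471, 27.1% for P28 and 25.5% for HHZ. After 3 days the rule took 6 members in H471, 6 in P28 and 5 in HHZ, beside 24.5%, 22.6% and 23.5% of all genes in those genotypes. SAPK1, SAPK3 and SAPK4 were higher and SAPK2 and SAPK9 lower in all 3. The sixth member was SAPK7 in H471 (a log2 difference of 1.05, against 0.93 in HHZ) and SAPK5 in P28 (1.1, against 0.91 in HHZ).

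Summed over the 10 genes, the SAPK level was between 589 and 631 FPKM in control leaves, between 436 and 486 FPKM after 1 day and between 643 and 653 FPKM after 3 days. The makeup of the sum also differed between conditions. In control leaves the subclasses took like shares: subclass II 30.9% to 35.0%, subclass I 32.0% to 34.8% and subclass III 33.0% to 34.3% over the 3 genotypes. After 1 day subclass I took 53.6% to 56.7% and subclass III 16.2% to 16.9%, and after 3 days they took 52.9% to 56.8% and 16.7% to 18.0%. SAPK2 and SAPK9 together made up most of the control sum, with 26.3%, 29.4% and 27.0% for SAPK2 and 26.8%, 25.4% and 25.7% for SAPK9 in H471, P28 and HHZ. After 1 day SAPK5 alone took 28.1%, 30.3% and 28.2%, while SAPK9 took 4.19%, 4.91% and 4.66%. These shares describe transcripts and carry no test.

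**Figure D3:**
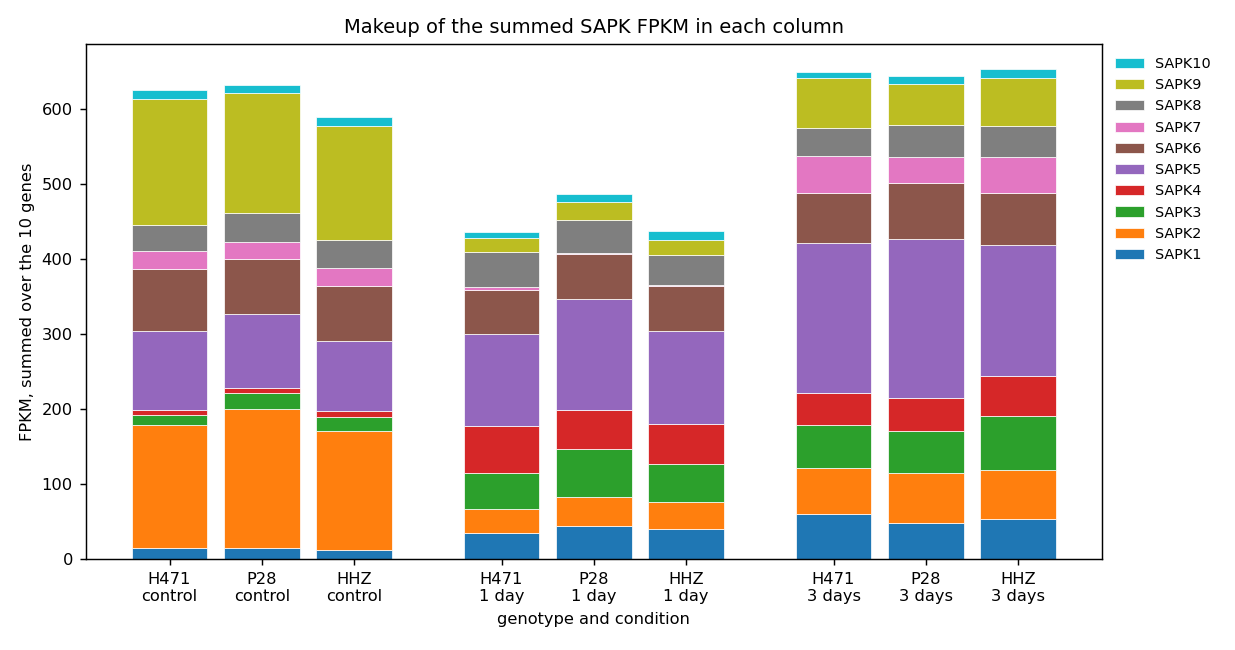
FPKM summed over the 10 SAPK genes (vertical axis) in each of the 9 columns, ordered by condition and then H471, P28 and HHZ, with each bar divided by gene from SAPK1 at the bottom to SAPK10 at the top. The SAPK2 and SAPK9 blocks fill much of the control bars, and the 1-day bars are the shortest at 436 to 486 FPKM.

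The drought profiles of the members were compared within and between subclasses. Likeness was measured as the root-mean-square (RMS) difference of the log2(FPKM + 1) profiles over the 9 columns, each centred on its own mean, so that a small value means alike profiles. The median was 1.34 over the 12 pairs of members within a subclass and 0.92 over the 33 pairs between subclasses, and the 9 columns of any pair come from the same libraries. SAPK1 and SAPK3, both of subclass II, were among the most alike pairs (0.21), while the third gene of that subclass, SAPK2, was most like SAPK9 of subclass III (0.34). SAPK6 and SAPK10, which both varied little, had the smallest difference of all 45 pairs (0.19). The least alike pair, SAPK4 and SAPK7 (2.42), lies within subclass I. The best Arabidopsis match given in the table cut across the profiles as well: it was OST1, the guard cell SnRK2 of Arabidopsis, for SAPK2, SAPK8, SAPK9 and SAPK10. These matches also cut across the subclasses, since SAPK2 of subclass II shared its match with subclass III. SAPK3 of subclass II shared its match with SAPK4 and SAPK6 of subclass I.

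Over the rest of the genome the same measure was taken to the 10780 other genes with a description and at least 10 FPKM in some column. The nearest profile to SAPK4 was that of LOC_Os01g62760, a clade A PP2C whose best Arabidopsis match is HAI2, at an RMS difference of 0.14. It was at 36.4, 45.5 and 45.3 FPKM in control leaves of H471, P28 and HHZ, at 389, 333 and 336 FPKM after 1 day and at 223, 302 and 297 FPKM after 3 days. The nearest to SAPK7 was LOC_Os03g22050 (0.24), matched to the CBL-interacting kinase CIPK10, which was between 44.0 and 56.7 FPKM in control leaves, between 5.22 and 6.08 FPKM after 1 day and between 84.8 and 102 FPKM after 3 days. With a pseudocount of 0.1 in place of 1 the nearest gene to SAPK7 was another, LOC_Os05g23320. Few genes came near these 2 members: 13 lay within an RMS difference of 0.25 of SAPK4 and 3 of SAPK7. SAPK9 also had 3 such genes, the nearest being the kinesin gene LOC_Os07g01490 (0.20).

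SAPK1 was nearest to LOC_Os07g37250 (0.13), which encodes the photosystem II protein PSB29, and SAPK2 to the leucine-rich repeat kinase gene LOC_Os03g49620 (0.11). SAPK3 was nearest to LOC_Os04g53740 (0.17), matched to the thioredoxin-like protein CXXS1. For the members that varied little the neighbours were many and the measure says little: 2540 genes lay within 0.25 of SAPK6, 2582 of SAPK8, 2009 of SAPK10 and 571 of SAPK5. Their nearest genes were LOC_Os08g37320, LOC_Os06g45330, LOC_Os03g45400 and LOC_Os07g03270, at RMS differences of 0.046, 0.055, 0.057 and 0.085. With a pseudocount of 0.1 LOC_Os08g44650 took the place of LOC_Os07g03270 for SAPK5, and the nearest gene was the same for 8 of the 10 members.

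No member was called between H471 and HHZ or between P28 and HHZ, and H471 was not tested against P28. In H471 against HHZ limma called 0 of 10 members, none had an unadjusted p under 0.05, and 0.224% of all genes were called. In P28 against HHZ it again called 0 of 10, where 6.64% of all genes were called. Here 2 members had an unadjusted p under 0.05: SAPK5 was higher in P28 than in HHZ in all 3 conditions (fitted log2 difference 0.21, 95% interval 0.01 to 0.40, limma adjusted p = 0.23), and SAPK7 lower in all 3 (-0.35, 95% interval -0.69 to -0.004, adjusted p = 0.24). Among the H471 differences the farthest from 0 was that of SAPK10 (-0.28, 95% interval -0.60 to 0.03, adjusted p = 0.78). By the size rule no member was past 2-fold in any condition in either of these comparisons with HHZ. For H471 against HHZ the rule took 2.46% of all genes in control leaves, 3.41% after 1 day and 3.4% after 3 days, and for P28 against HHZ 7.25%, 6.76% and 6.24%.

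Over the 3 conditions the differences of the 10 members between H471 and HHZ ran from -0.54 (SAPK10 after 3 days) to 0.35 (SAPK7 after 1 day) on the log2 scale. Those between P28 and HHZ ran from -0.49 (SAPK7 after 1 day) to 0.36 (SAPK3 after 1 day). SAPK7 after 1 day, at 3.17 FPKM in H471, 1.33 FPKM in P28 and 2.27 FPKM in HHZ, had the largest ratio between genotypes on a low level. Whether a genotype changed the drought difference of a member could not be tested, since each combination has 1 value.

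**Figure D4:**
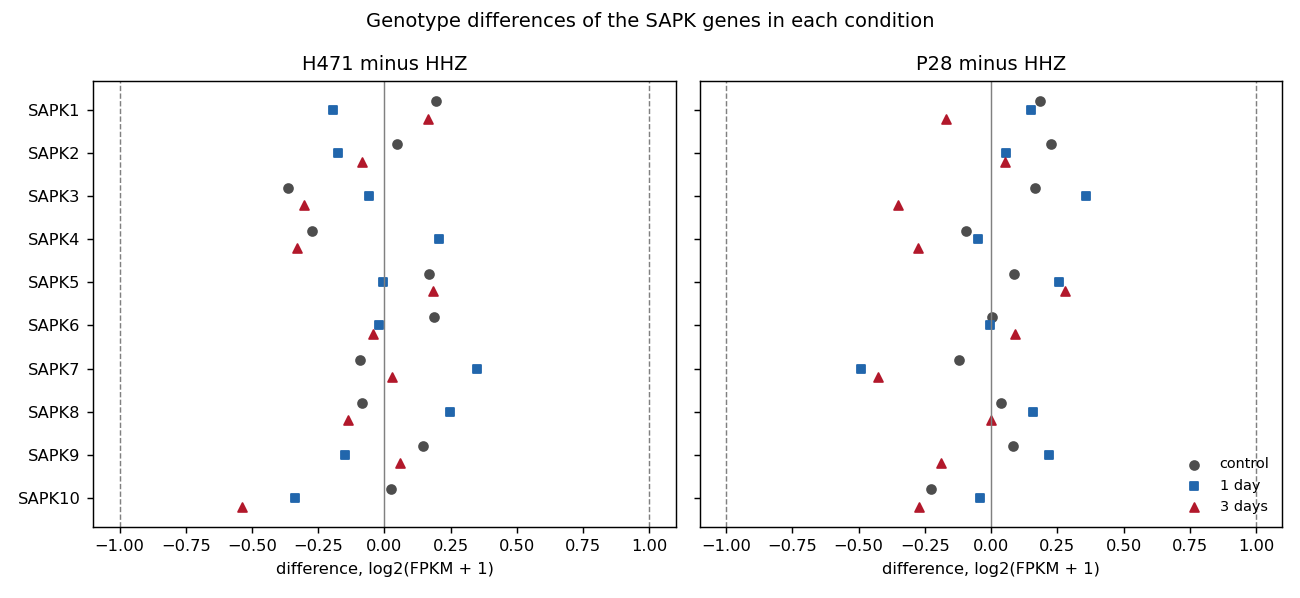
Difference in log2(FPKM + 1) (horizontal axis) of each SAPK gene (rows) for H471 minus HHZ (left) and P28 minus HHZ (right), in control leaves (circles), after 1 day (squares) and after 3 days (triangles); dashed lines mark the 2-fold size rule. All points lie between -0.54 and 0.36, inside the dashed lines.

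By locus number, no member lay between the first and last gene listed for a segment that H471 received from P28. The closest was SAPK6, with 19 genes of the table between it and LOC_Os02g34860, the first listed gene of a segment on chromosome 2. SAPK10 was 34 genes from a segment on chromosome 3, SAPK2 was 51 genes from one on chromosome 7 and SAPK1 was 66 genes from one on chromosome 3. SAPK4, SAPK5, SAPK7 and SAPK8 were each at least 273 genes away, and the chromosomes of SAPK3 and SAPK9 carried no listed segment. The exact ends of the segments were not used here. The paper lists the segments together with the genes that differed between H471 and HHZ. A segment can reach past its first or last listed gene, so a member near one may still lie inside it. In the same way, a chromosome without a listed segment may carry one.

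The other parts of the ABA pathway were followed by gene list in the same fit. Of the 13 PYL receptor genes, 5 passed the filter, of which 2 rose and 2 fell after 1 day, and 2 rose and 1 fell after 3 days. Among all genes, as above, 27.4% rose and 30.8% fell after 1 day, and 27% rose and 30.1% fell after 3 days, the shares against which this and the following list counts stand. LOC_Os02g15640 rose on both days, with fitted log2 differences of 1.03 (adjusted p = 1.9e-05) and 1.09 (adjusted p = 2.2e-05). LOC_Os05g12260, the receptor gene with the highest level, fell after 1 day (-1.08, adjusted p = 3.5e-05) and rose after 3 days (0.77, adjusted p = 0.0002), directions that SAPK7 also had. LOC_Os03g18600 fell after 1 day, with a difference of -1.88 (adjusted p = 0.00026), and LOC_Os10g42280 was not called (-0.06).

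All 9 clade A PP2C genes passed the filter. After 1 day 8 of them rose and none fell, with a median log2 difference of 2.44, and after 3 days all 9 rose, with a median of 2.35. Over all genes the medians were -0.02 and -0.03. LOC_Os05g38290 was between 0.504 and 0.889 FPKM in control leaves, between 60.7 and 87.9 FPKM after 1 day and between 96.5 and 126 FPKM after 3 days, the largest 1-day difference of the list (5.36, adjusted p = 1.3e-06). LOC_Os05g49730 was next (4.18, adjusted p = 7.1e-06). At the other end, LOC_Os05g51510 rose by 0.98 (adjusted p = 7.8e-05) and LOC_Os01g46760 was not called after 1 day (0.31, adjusted p = 0.21). The summed level of the 9 phosphatase genes was between 176 and 187 FPKM in control leaves, between 962 and 1068 FPKM after 1 day and between 790 and 1043 FPKM after 3 days. The sum of the 10 kinases over the same columns stayed between 436 and 653 FPKM.

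Among 7 ABA bZIP factor genes, which encode targets of the kinases, 6 passed the filter, all 6 rose after 1 day (median 1.78) and 5 rose after 3 days (median 1.19). bZIP23, an activator of ABA-responsive and drought-responsive genes in rice, rose most after 1 day (3.04, adjusted p = 1.7e-06), followed by bZIP12 (2.87, adjusted p = 3.8e-06). The smallest 1-day rises were those of bZIP42 (0.53, adjusted p = 0.0034) and bZIP46 (1.06, adjusted p = 0.00018). Of 6 other effector genes, all 6 rose after 1 day (median 6.51), and after 3 days 5 rose and 1 fell (median 4.12). SLAC1, the guard cell anion channel gene, was the one that fell: its difference was 0.77 after 1 day (adjusted p = 0.00047) and -0.68 after 3 days (adjusted p = 0.00095). The dehydrin gene RAB16A was at 1211, 556 and 749 FPKM after 1 day in H471, P28 and HHZ, against 0.835, 0.323 and 0 FPKM in the control columns of the same genotypes. RAB16B had a 1-day difference of 8.99 (adjusted p = 6.4e-07), and RAB16C one of 4.34 (adjusted p = 4.2e-05).

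Related kinase families were counted in the same way. All 3 SnRK1 genes, which encode energy-sensing kinases, passed the filter, and 2 rose on each day, with medians of 0.23 on both. LOC_Os05g45420 had the largest 1-day difference (0.66, adjusted p = 0.00044), followed by LOC_Os08g37800 (0.23, adjusted p = 0.035), and LOC_Os03g17980 was not called (0.03, adjusted p = 0.80). Of the 38 genes described as SnRK3 or CIPK kinases, which act with calcineurin B-like calcium sensors, 29 passed the filter. After 1 day 18 rose and 6 fell (median 0.75), and after 3 days 16 rose and 7 fell (median 0.61). LOC_Os08g34240 rose most after 1 day (5.6, adjusted p = 2.4e-07), followed by LOC_Os01g10890 (4.12, adjusted p = 7.3e-07). LOC_Os03g22050, the nearest profile to SAPK7 at a pseudocount of 1, fell most after 1 day (-3.0, adjusted p = 2.1e-06), and LOC_Os07g05620 fell next most (-1.66, adjusted p = 6.4e-06). The other 2 rows with an SnRK2 description or symbol, LOC_Os05g35760 and LOC_Os05g35770, stayed at or below 0.440 FPKM and did not pass the filter. Between H471 and HHZ 0.224% of all genes were called, and between P28 and HHZ 6.64%. In none of the lists of receptors, phosphatases, bZIP factors and SnRK1 kinases was a gene called in either comparison. The other effectors and the SnRK3 or CIPK genes also had no call between H471 and HHZ. Between P28 and HHZ 1 effector was called, SLAC1, which was higher in P28 (0.54, adjusted p = 0.021), and 3 SnRK3 or CIPK genes were lower in P28: LOC_Os09g25090 (-1.17, adjusted p = 0.002), LOC_Os11g02240 (-0.64, adjusted p = 0.0035) and LOC_Os12g02200 (-0.50, adjusted p = 0.046).

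**Figure D5:**
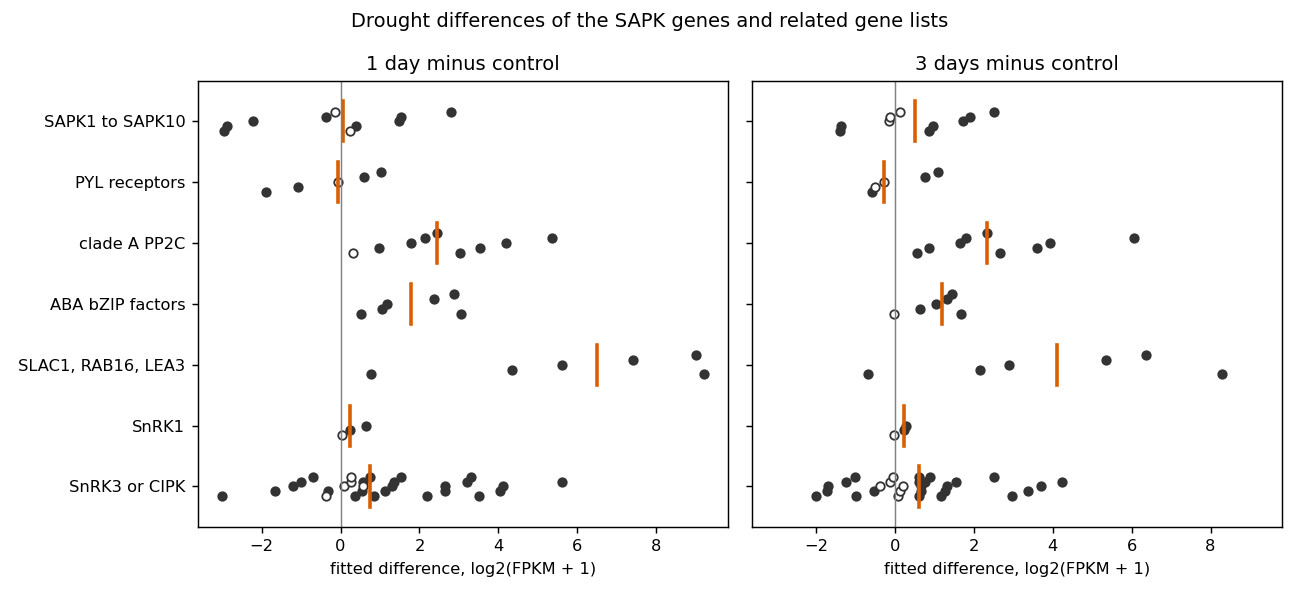
Fitted difference from control in log2(FPKM + 1) (horizontal axis) after 1 day (left) and 3 days (right) for the SAPK genes and for related lists (rows), with 1 point for each gene that passed the filter, filled where called, and an orange bar at the median. The SAPK points lie on both sides of 0, with a 1-day median of 0.05, and the clade A PP2C points lie above 0, with a 1-day median of 2.44.

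Genes of the circadian clock moved with the same comparisons, and the hour at which leaves were taken is not given in the sources used here. All 8 clock genes examined were called after 1 day, 3 up and 5 down, and 7 after 3 days, 6 up and 1 down, where 27.4% of all genes rose and 30.8% fell after 1 day and 27% rose and 30.1% fell after 3 days. The morning gene LHY was at 2.08, 1.53 and 1.49 FPKM in control leaves of H471, P28 and HHZ, at 353, 426 and 389 FPKM after 1 day and at 10.6, 17.3 and 14.2 FPKM after 3 days. LUX, an evening gene, was between 493 and 560 FPKM in control leaves, between 1.07 and 1.59 FPKM after 1 day and between 84.0 and 102 FPKM after 3 days. PRR1 was between 77.0 and 86.6 FPKM in control leaves, between 3.59 and 5.86 FPKM after 1 day and between 94.8 and 104 FPKM after 3 days. SAPK7 was likewise low after 1 day and high in the other conditions. SAPK2 and SAPK9 had the same order of conditions as LUX, highest in control leaves, lowest after 1 day and in between after 3 days. The 1-day difference was -3.95 for PRR1 and 2.05 for PRR37. The part of the clock, or of the hour of sampling, in the drought differences of the SAPK genes was not tested, and the condition and the hour cannot be told apart in these columns.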

How the data were processed

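The authors removed ribosomal RNA from total RNA of the top leaves, sequenced paired-end libraries, aligned the reads with TopHat to the MSU rice genome and ran Cufflinks with bias and multi-read correction. They also state that uniquely matched reads went into the further analysis. The deposited values are the authors' FPKM for 39049 genes in 9 columns, each a pool of 2 libraries. The sources used here give no tool versions.

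A gene was kept if any column reached 1 FPKM (20568 genes), and values were taken as log2(FPKM + 1). limma 3.58.1 in R 4.3.3 was run with a trend and additive terms for genotype and condition (4 residual degrees of freedom). Its code was first checked on simulated columns with equal, independent noise for all genes and few changed genes. That check does not test the use of genotypes in place of replicates. The median-ratio factors of the columns lay between -0.02 and 0.03 on the log2 scale, so the authors' scaling was left as it was. Profiles, shares and figures were made in Python 3.11.15. Alternatives were another pseudocount, no filter, median-ratio scaling, no trend, a stricter adjusted p and the omission of each genotype or condition.

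All 10 members are named. Other genes named are the nearest profile to each member and, for every list, the 2 largest and the 2 lowest 1-day differences among genes with at least 5 FPKM in some column. The 2 other SnRK2 rows, the markers, the nearest genes at the other pseudocount and the list genes called between P28 and HHZ are named besides, the last 2 kinds chosen after their values were seen. The members and lists were chosen with earlier results of these data known.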

Additional observations from a re-analysis of the deposited data

Results flagged for a closer look

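In 2 members the drought difference from control had opposite signs in different genotypes, each genotype having 1 pooled value per condition. SAPK10 differed after 1 day by -0.43 in H471, 0.11 in P28 and -0.070 in HHZ on the log2(FPKM + 1) scale, and after 3 days by -0.51 in H471, 0.014 in P28 and 0.059 in HHZ. SAPK6 differed after 3 days by -0.31 in H471, 0.0088 in P28 and -0.080 in HHZ. The difference between the genotypes was not tested in either gene.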

How the results depend on the processing

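No paired analysis was possible because the 2 libraries of each genotype and condition, which carry the replicate numbers, are pooled in 1 column. The counts of members called and of members past the size rule stayed within 1.5 times their reported values under every alternative named above. Within that limit, the count of members called between the drought days fell from 6 to 4 without the H471 columns, without the HHZ columns and at an adjusted p under 0.01. It fell to 5 with no filter, with median-ratio scaling, with no trend and with only the 6 columns of the drought days. Of 400 alternative fits of single members, 373 kept the direction and the side of the threshold, 10 lost a call and 2 gained one, all given with the members above. The other 15 changed sign, each for a difference that was not called in either fit. Without the H471 columns SAPK10 came to 0.022 after 1 day, 0.036 after 3 days and 0.014 between the drought days, and SAPK8 to 0.0012 between the drought days. Without the P28 columns SAPK10 came to 0.027 between the drought days. For H471 against HHZ, SAPK1 (-0.015), SAPK6 (-0.033) and SAPK9 (-0.045) turned without the control columns, SAPK7 (-0.031) and SAPK8 (-0.11) without the 1-day columns and SAPK9 (-0.0020) without the 3-day columns. For P28 against HHZ, SAPK1 (-0.0092) turned without the control columns, SAPK3 (-0.094) and SAPK9 (-0.054) without the 1-day columns and SAPK6 (-0.00041) without the 3-day columns. The cause was not tested. With a pseudocount of 0.1 the gene of nearest profile was the same for 8 of the 10 members, SAPK5 and SAPK7 being the exceptions. Pooled columns leave the spread between plants unknown, and limits set by depth were not computed, since the table holds no counts.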
